A study of Homo sapiens with 32 samples.

Results

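TFF1 and TFF3, the trefoil factors with a named probe on these arrays, were followed in tamoxifen-treated ZR-75-1 xenografts. The members are all probes that carry either symbol in the gene list published with the study, which gave 2 probes for TFF1 and 1 for TFF3, 3 of the 333 named and of the 9912 measured probes, or 2 of 253 named genes. The TFF1 probes are called TFF1-A and TFF1-B after the letter that ends their identifiers in the files. ZR-75-1 is an established cell line of human breast cancer with estrogen receptor, and the tumors were grown in nude mice (nu/nu), which lack T cells. The tested tumors had received estradiol (E2) and, for 1, 2, 4, 7 or 14 days, tamoxifen from a pellet that releases 2.5 mg over 60 days. There were 16 tumors from 12 mice: 4 tumors (2 mice) on day 1, 2 tumors (2 mice) on day 2, 4 tumors (3 mice) each on day 4 and day 7, and 2 tumors (2 mice) on day 14. Every one was compared with 1 control pool, made from xenografts of mice given E2 without tamoxifen on days 0, 1, 2 and 4. The control animals thus carried the same E2 supplement, and no control tumor of day 7 or 14 entered the pool. All tumors descend from 1 cell line, and the mouse contributed the stroma and vessels.

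Trefoil factors are small secreted proteins, held in a compact fold by disulfide bonds, that mucus-producing epithelia release together with mucins and that take part in the repair of the epithelial surface. TFF1, first known as pS2, is a classical estrogen-induced gene of breast cancer cells: the estrogen receptor binds an element in its promoter, and tamoxifen competes with estrogen for that receptor. TFF3, also called intestinal trefoil factor, is expressed in many estrogen receptor-positive breast cancers as well. In the RefSeq annotation (GRCh38.p14), TFF3, TFF2 and TFF1 follow each other in this order on chromosome 21, with the long noncoding RNA LOC105372815 between TFF2 and TFF1. TFF2 has no named probe and was not analysed here. The arrays carry no genome build, so no position is given for the probes.

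Each tumor was hybridized with the pool in both dye orientations, a forward and a dye-swap array. The value used is the log2 ratio of tumor over pool, averaged over both orientations, so that 0 means the level of the pool and -1 means a level 2-fold below it. The files do not say which channel holds which dye. The direction used here matches the value table of the authors and is only likely: if the channels are numbered as in the sample labels, every sign below turns, lower becomes higher, and a level 2-fold below the pool becomes one 2-fold above it. On day 4, the dye-swap array of replicate 3 was not used, because its unnormalized log ratios followed those of another tumor, day 4 replicate 2, with r = 0.980 across probes (next highest 0.790). The tumor keeps its forward array. Forward arrays correlated with each other at r = 0.244 to 0.613 and dye-swap arrays at 0.0226 to 0.610. The median spot lay 2.77 to 7.92 times above its background, and the number of arrays, not a read depth, limits the precision.

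TFF1 was lower than in the control pool in every tumor and at every time. With probe TFF1-B, the log2 ratios of the 4 day 1 tumors were -1.46, -1.39, -1.53 and -1.39. Those of day 2 were -1.38 and -2.02. On day 4 they were -1.32, -1.45, -1.35 and -1.53 in replicates 1, 2, 3 and 5. Of these 3 days, only day 2 held tumors far apart. On day 7 the ratios were -1.19, -1.57, -1.01 and -1.26, and on day 14 they were -1.62 and -2.955. The second day 14 tumor thus had the lowest TFF1 ratio of the series, and the third day 7 tumor the highest.

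**Figure D1:**
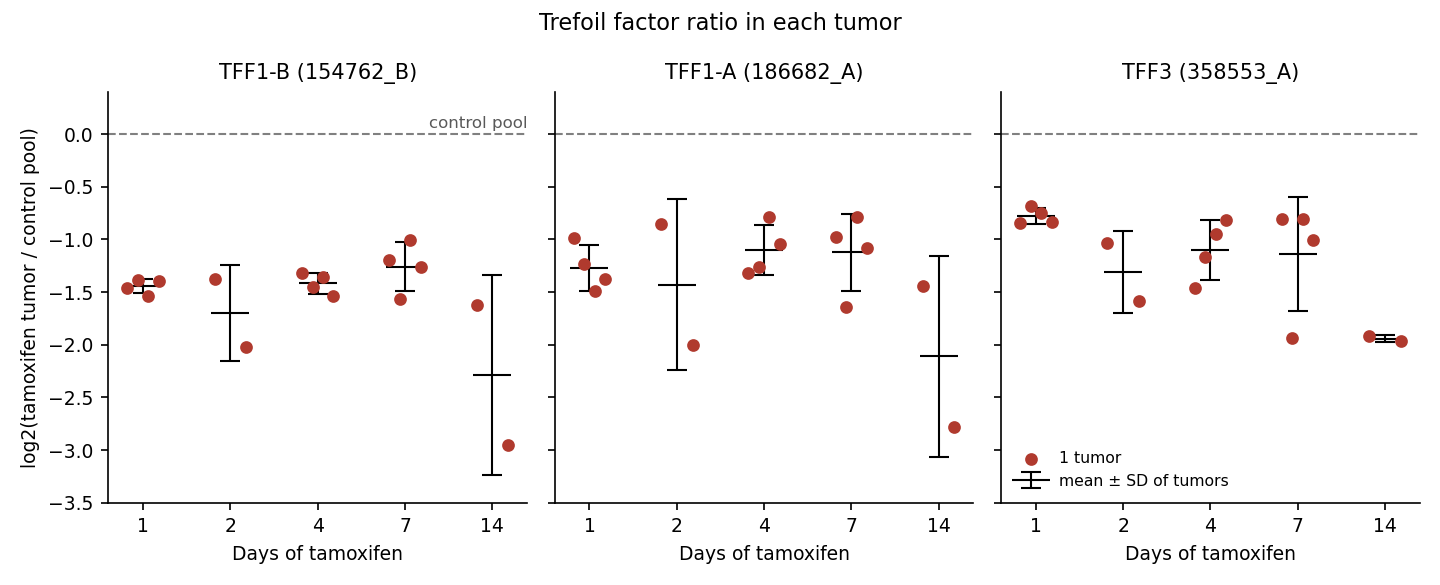
Vertical axis, log2 of the tumor level over the pool level; horizontal axis, days of tamoxifen (not to scale), for both TFF1 probes and the TFF3 probe. Red points are tumors, ordered by replicate within a day, and black bars are the mean ± SD of the tumors. All points lie below the dashed line of the pool, and day 14 replicate 2 is the lowest for TFF1.

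The mean of TFF1-B was -1.44 ± 0.069 on day 1 (SD, n = 4), or 36.8% of the pool, with an adjusted p of 7.67e-05 in limma. It was -1.70 ± 0.46 on day 2 (n = 2, adjusted p = 0.00099) and -1.415 ± 0.098 on day 4 (n = 4, adjusted p = 0.000126). It was -1.26 ± 0.23 on day 7 (n = 4, adjusted p = 0.00101) and -2.29 ± 0.95 on day 14 (n = 2, adjusted p = 6.92e-06), the latest time, with 20.5% of the pool. The level was thus 2.39-fold to 4.88-fold below the pool, and the probe was among the 8 lowest of 9912 probes on all 5 days. With the sign turned it would be among the 8 highest, at 272% of the pool on day 1 and 488% on day 14.

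Probe TFF1-A, the brighter one, gave the same sign in every tumor. Its log2 ratios were -0.98, -1.24, -1.49 and -1.37 on day 1, -0.86 and -2.002 on day 2, and -1.32, -1.26, -0.79 and -1.04 on day 4. On day 7 they were -0.98, -1.64, -0.79 and -1.08, and on day 14 they were -1.44 and -2.78. As with the other probe, the second tumors of days 2, 7 and 14 were the lowest of their days. The means were -1.27 ± 0.22 (day 1, adjusted p = 0.00142), -1.43 ± 0.81 (day 2, adjusted p = 0.0151), -1.10 ± 0.24 (day 4, adjusted p = 0.0111), -1.12 ± 0.37 (day 7, adjusted p = 0.0137) and -2.11 ± 0.95 (day 14, adjusted p = 0.000201). The level was 2.15-fold to 4.32-fold below the pool. Counted from the lowest of 9912 probes, TFF1-A ranked between 7 (day 2) and 13 (day 4), or from the highest with the sign turned. Without the second day 2 tumor the day 2 ratio is -0.86 (adjusted p = 0.188), and without the second day 14 tumor the day 14 ratio is -1.44 (adjusted p = 0.0657), so both calls of this probe rest on these tumors. The day 4 call is lost without the second day 4 tumor (adjusted p = 0.0765), and the day 7 call without the second or the fourth day 7 tumor (adjusted p = 0.152 and 0.0613).

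TFF3 was lower than the pool in all 16 tumors too. Its log2 ratios on day 1 were -0.85, -0.68, -0.75 and -0.83, the smallest decrease of any day and the one with the least spread among the days with 4 tumors. They were -1.04 and -1.58 on day 2. On day 4 they were -1.46, -1.16, -0.95 and -0.81, and on day 7 they were -0.80, -1.93, -0.81 and -1.01. Here the second day 7 tumor stood apart from the other 3 of its day. Both day 14 tumors were low, at -1.92 and -1.97.

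The TFF3 mean was -0.78 ± 0.076 on day 1 (n = 4, adjusted p = 0.00675), or 58.3% of the pool, and -1.31 ± 0.39 on day 2 (n = 2, adjusted p = 0.00455). It was -1.10 ± 0.28 on day 4 (n = 4, adjusted p = 0.0013) and -1.14 ± 0.54 on day 7 (n = 4, adjusted p = 0.00114). On day 14 it was -1.94 ± 0.034 (n = 2, adjusted p = 4.24e-05), or 26% of the pool. With the sign turned the day 1 and day 14 levels would be 171.5% and 384.6% of the pool. The level was 1.72-fold to 3.85-fold below the pool over the 5 days. Counted from the lowest of 9912 probes, TFF3 ranked between 8 (day 2) and 31 (day 1), or from the highest with the sign turned. The day 1 call is lost without the first day 1 tumor (adjusted p = 0.0507), and the day 2 call without either of its tumors (adjusted p = 0.0637 and 0.0641).

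All 3 probes thus passed an adjusted p of 0.05 on all 5 days, in the lower direction, with the tumors as samples and the mouse as a random block. With 1 mean per mouse, TFF1-A no longer passed on days 1, 4 and 7 (adjusted p = 0.128, 0.105 and 0.105 in limma) nor TFF3 on day 1 (adjusted p = 0.196), and the other 11 calls were kept. Of all 9912 probes, 3.59% were called lower on day 1, 0.636% on day 2, 0.696% on day 4, 0.494% on day 7 and 2.96% on day 14. With the sign turned, 3%, 0.141%, 0.373%, 0.242% and 3.33% would be called lower on these days, and the trefoil factors higher. In both directions together, 653, 77, 106, 73 and 623 probes were called, numbers that single tumors moved: 125 without the first and 142 without the second tumor on day 1, 6 without the first and 324 without the second on day 2, 15 without the second on day 4, 14 without the second tumor or replicate 4 on day 7, and 168 without the first and 30 without the second on day 14. The gene list that names the probes was selected by the study for a change in these same samples, so a trefoil factor probe without a change would carry no name here. The 15 calls are therefore a description and no independent evidence, and nothing is read from their share. With a single pool, the spread among control tumors is no part of these tests. For days 7 and 14, tamoxifen and the age of the tumor cannot be told apart in a comparison with this pool. In bulk tumors, fewer cells that express the gene and less RNA per cell cannot be told apart either.

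The day 4 and day 7 calls depended on which arrays and values were used. Without the tumor whose dye-swap array was not used, day 4 was at -1.43 for TFF1-B, -1.21 for TFF1-A and -1.15 for TFF3, and all calls were kept. With that array taken as labelled, day 4 was at -1.03, -0.82 and -0.82 in the same order and no longer passed (adjusted p = 0.362, 0.702 and 0.389 in limma), and neither did day 7 (adjusted p = 0.0592, 0.0886 and 0.057) nor TFF1-A on day 2 (adjusted p = 0.0811). With the authors' value table, the day 7 ratios were -0.98, -0.78 and -0.94 in that order and missed the threshold (adjusted p = 0.096, 0.15 and 0.0758).

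The spots were bright in both channels. For TFF1-B the tumor channel averaged 13.9 ± 0.45 and the pool channel 15.4 ± 0.16 on the log2 scale of normalized intensity (SD over 16 tumors, each the mean of its arrays). For TFF1-A the averages were 14.4 ± 0.52 in the tumor channel and 15.7 ± 0.17 in the pool channel, and for TFF3 they were 13.7 ± 0.49 in the tumor channel and 14.9 ± 0.22 in the pool channel. The pool channel, which held the same RNA on every array, varied less than the tumor channel for each probe. The quantile normalization over all arrays gives the brightest spots shared values. For TFF1 some pool spots also lay near the upper limit of the scanner. Whether either narrowed the spread of the pool channel was not tested.

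**Figure D2:**
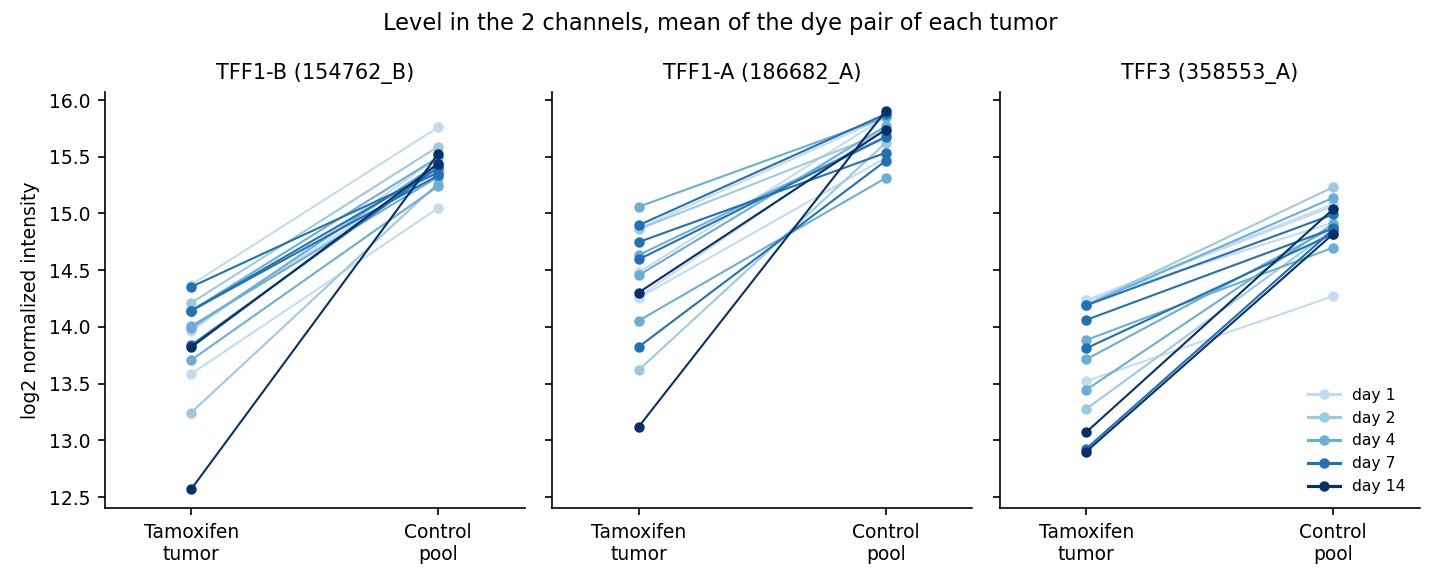
Log2 normalized intensity (vertical axis) of the tamoxifen tumor channel and the control pool channel for each probe. Each line is 1 tumor, shaded by day, with the mean of its arrays. The tumor channel spans 12.6 to 14.4 for TFF1-B and the pool channel 15.05 to 15.8.

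In single arrays, too, every spot used had a ratio below the pool, on 29 arrays for TFF1-B, 30 for TFF1-A and 31 for TFF3. TFF1-B carried the authors' mark on 2 arrays and was left out there, and TFF1-A is not listed on 1 array. The lowest tumor signal was 28.1 (TFF1-B), 56.3 (TFF1-A) and 29.2 (TFF3) times its background. In the pool channel, TFF1-A passed an intensity of 65000 on 3 arrays and 60000 on 12, close to the upper limit of the scanner, TFF1-B did so on 1 and 5 arrays, and TFF3 on none. Whether the brightest pool spots lost signal at that limit was not tested.

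The TFF1 probes measure the same gene on the same arrays. Over the 16 tumors their log2 ratios correlated with r = 0.922 (rho = 0.774), a description over values from the same arrays. The median gap between them was 0.18 and the largest 0.56. TFF1-B gave the lower ratio in 11 of 12 mice, with a mean difference (TFF1-B minus TFF1-A) of -0.23 ± 0.21 (SD, n = 12 mice; two-sided exact sign-flip permutation test over mice, p = 0.00244). The mean size of the TFF1 decrease therefore differed between the probes, while the difference ranged from -0.56 to 0.0715 among mice. The direction of the TFF1 ratio was the same with both probes. The gap was largest in day 4 replicate 3 (-0.56), day 2 replicate 1 (-0.52), day 4 replicate 5 (-0.49) and day 1 replicate 1 (-0.48). In 2 of these tumors, day 4 replicate 3 for both probes and day 2 replicate 1 for TFF1-A, a value rests on a single array.

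Both dye orientations gave ratios below the pool for each probe and tumor that had both. TFF3 was the most even: its forward arrays averaged -1.19 ± 0.51 and its dye-swap arrays -1.16 ± 0.45 over 15 tumors, the orientations correlated with r = 0.922, and the largest gap within a tumor was 0.37. For TFF1-B the averages were -1.64 ± 0.52 on forward and -1.49 ± 0.51 on dye-swap arrays (13 tumors, r = 0.767, largest gap 0.82). For TFF1-A they were -1.56 ± 0.58 on forward and -1.215 ± 0.54 on dye-swap arrays (14 tumors, r = 0.653, largest gap 1.24), with the forward array lower in 10 of 14 tumors.

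**Figure D3:**
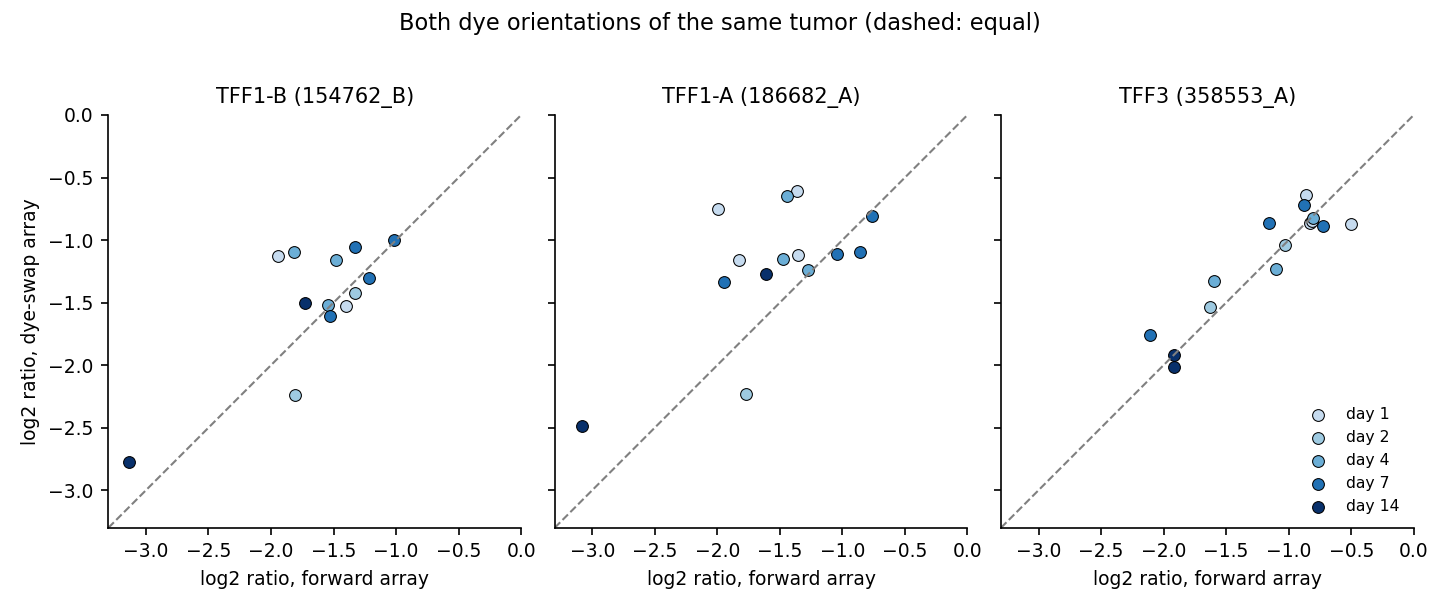
Log2 ratio of tumor over pool on the forward array (horizontal axis) and on the dye-swap array (vertical axis) of the same tumor, shaded by day, with the line of equal values dashed. TFF3 lies closest to the line (r = 0.922), and for TFF1-A the forward value is lower in 10 of 14 tumors.

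The mean difference of forward minus dye-swap ratio over mice was -0.32 ± 0.46 for TFF1-A (n = 10 mice, exact sign-flip permutation test, p = 0.0566, adjusted over the 3 probes 0.17). It was -0.13 ± 0.35 for TFF1-B (n = 11, exact p = 0.242, adjusted 0.32) and -0.046 ± 0.14 for TFF3 (n = 11, exact p = 0.32, adjusted 0.32). None passed the threshold after adjustment. For TFF1-A the unadjusted p falls under 0.05 without the second tumor of day 1, day 2 or day 4 or the first of day 7 (exact permutation p = 0.0469, 0.0234, 0.0488 and 0.0352).

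The days were then set against each other, where the pool cancels. Array quality does not cancel: the median spot lay 2.77 to 4.25 times above its background on day 14 arrays and 4.34 to 7.92 times on day 1 arrays. Its part in the differences was not tested. Days of tamoxifen and age of the tumor cannot be told apart here either. The order of the means was day 14, 2, 1, 4 and 7 for TFF1-B, starting with the lowest, and day 14, 2, 1, 7 and 4 for TFF1-A. For TFF3 it was day 14, 2, 7, 4 and 1. No neighbors in these orders passed the adjusted threshold. Day 14 minus day 2, the widest step at the low end, was -0.59 for TFF1-B (95% confidence interval -1.22 to 0.052), -0.68 for TFF1-A (-1.49 to 0.13) and -0.63 for TFF3 (-1.265 to -0.0024), with adjusted p = 0.538, 0.571 and 0.496 in limma and 0.0908% of all probes called. The intervals of the other neighbors all include 0.

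Over all 10 pairs of days and 3 probes, 0 of 30 differences passed an adjusted p of 0.05 in limma, and 10 had an unadjusted p under 0.05, all of them with day 14 as the later day. In that set, day 14 minus day 4 was -0.87 for TFF1-B, -1.01 for TFF1-A and -0.85 for TFF3 (adjusted p = 0.149, 0.193 and 0.156), where 0.363% of all probes were called. TFF3 came closest: it was -1.94 on day 14 and -0.78 on day 1, with both day 14 tumors below all 4 day 1 tumors, a difference of -1.165 (95% confidence interval -1.71 to -0.62, adjusted p = 0.0637). Of all probes, 0.293% were called in that contrast. The adjusted p for this difference is 0.0353 with plain background subtraction, 0.0443 without background correction and 0.0223 without quantile normalization, so the call depends on the normalization. It also passes without the second day 7 tumor, a tumor of neither day (adjusted p = 0.0067). For TFF1-B the same difference was -0.84 (-1.40 to -0.29, adjusted p = 0.204). It is -1.51 (adjusted p = 0.00749) without the first day 14 tumor and -0.18 (adjusted p = 0.921) without the second. For TFF1-A it was -0.84 (-1.54 to -0.14, adjusted p = 0.352), and -1.51 and -0.17 without the first and the second day 14 tumor. Leaving out either day 14 tumor moved the TFF3 difference only to -1.19 or -1.14.

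Day 14 minus day 7 was -1.03 for TFF1-B (-1.58 to -0.47, adjusted p = 0.205), -0.99 for TFF1-A (-1.69 to -0.29, adjusted p = 0.404) and -0.80 for TFF3 (-1.35 to -0.26, adjusted p = 0.355), where 0.0807% of all probes were called. Without the first day 14 tumor the TFF1-B difference is -1.70 (adjusted p = 0.00322), and without the second day 7 tumor the TFF3 difference is -1.07 (adjusted p = 0.0345). Between days 1, 2, 4 and 7 no probe of the arrays passed the threshold in any pair of days, and the unadjusted p was under 0.05 for 523 to 952 probes of a pair. The F-test over the 5 days gave adjusted p = 0.394 and 0.513 for the TFF1 probes and 0.341 for TFF3. A p that misses the threshold does not show that the days were alike: the intervals of day 14 minus day 1 together run from -1.71 to -0.14 on the log2 scale.

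The TFF3 ratio was nearer to the pool than the TFF1 ratio in 10 of 12 mice, a difference that did not pass the test. The difference of log2 ratios, TFF3 minus the mean of both TFF1 probes, was above 0 in all 4 day 1 tumors (0.38, 0.63, 0.76 and 0.55) and in both day 2 tumors (0.083 and 0.43). It was -0.15, 0.19, 0.12 and 0.47 on day 4, 0.29, -0.33, 0.090 and 0.16 on day 7, and -0.39 and 0.90 on day 14. The day 14 tumors thus lay on opposite sides, since TFF3 was alike in them and TFF1 was not. Over mice the mean difference was 0.24 ± 0.38 (exact sign-flip permutation test, p = 0.0527, adjusted over 6 tests 0.316). The day means over mice were 0.58 (day 1), 0.26 (day 2), 0.21 (day 4), 0.028 (day 7) and 0.26 (day 14). Within a day, 2 or 3 mice allow no exact p below 0.5 or 0.25. The overall exact p falls under 0.05 without the first tumor of day 1, 4 or 14 or the second of day 7 (0.0493, 0.04, 0.0166 and 0.0205). The quantities compared are differences from the pool, not levels of the genes.

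**Figure D4:**
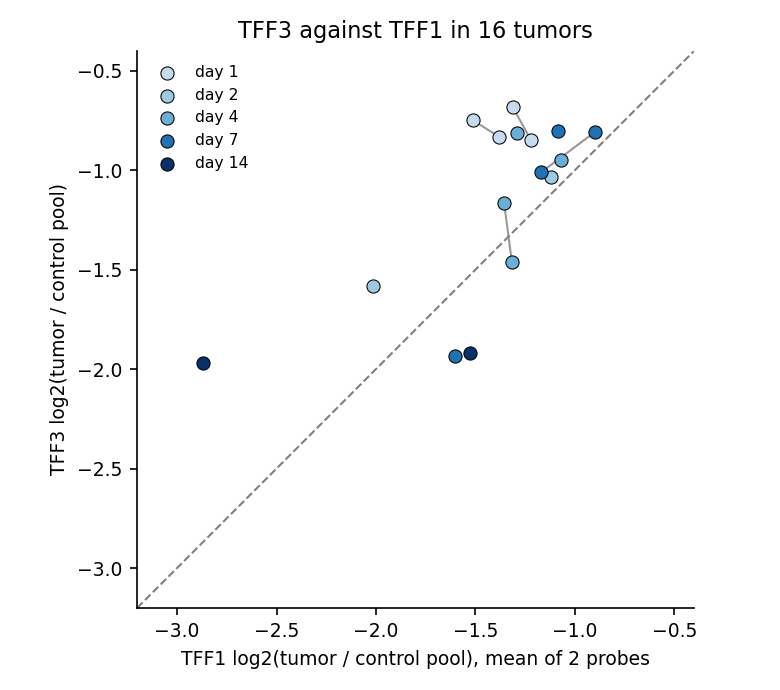
Log2 ratio of tumor over pool for TFF3 (vertical axis) and for TFF1 (horizontal axis, mean of its 2 probes) in 16 tumors, shaded by day. Gray lines join tumors of the same mouse, and the dashed line marks equal ratios. Day 14 replicate 2 lies far left, with a TFF1 ratio of -2.87 and a TFF3 ratio of -1.97.

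Tumors low in TFF1 tended to be low in TFF3. Over the 12 mouse means, r was 0.718 (permutation p = 0.00392) and rho 0.636 (permutation p = 0.0299), with values adjusted over 6 tests of 0.0199 and 0.0448. Without the mice farthest from the median of TFF1 (day 14 replicate 2 and day 2 replicate 2), r was 0.7095 (permutation p = 0.0192) and rho 0.406 (permutation p = 0.25) over 10 mice, so the rank relation no longer held. Over deviations from the mean of each day, r was 0.543 (permutation p = 0.0673) and rho 0.748 (permutation p = 0.00664). On days 1, 2 and 14, with 2 mice each, the deviations of the mice mirror each other. The permutation shuffled all 12 values freely across days. Its p for the deviations is therefore no valid test of a relation within days. All points share the pool, and both genes were read from the same arrays. The tumors with the lowest 4 TFF1 ratios, the second of day 14, 2 and 7 and the first of day 14, were also those with the lowest 4 TFF3 ratios.

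In 4 cases a pair of tumors came from the same mouse. The gap between such tumors averaged 0.15 for TFF1-B, 0.18 for TFF1-A and 0.19 for TFF3 on the log2 scale. Over the 16 pairs from different mice of the same day it averaged 0.27, 0.49 and 0.39 in the same order, with a largest gap of 1.34, 1.347 and 1.13. Days 2 and 14 have no pair from the same mouse, and on the other 3 days the gap between different mice averaged 0.17, 0.385 and 0.40 over 14 pairs. For TFF1-B this lay close to the gap within a mouse, and for TFF1-A and TFF3 it was larger, a description over few pairs. Over all probes, the correlation that limma estimated between tumors of a mouse was 0.0207.

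The trefoil factors were next set beside 40 genes known from estrogen-receptor-positive cells to be induced by estrogen, of which 25 had a named probe, the brightest one standing for a gene. With TFF1-A for TFF1, 11, 4, 10, 10 and 22 of the 25 were called lower on day 1, 2, 4, 7 and 14. Of all probes, 3.59%, 0.636%, 0.696%, 0.494% and 2.96% were called lower on these days. Without the trefoil factors the counts were 9, 2, 8, 8 and 20 of 23. None of the 25 genes was called higher, where 3%, 0.141%, 0.373%, 0.242% and 3.33% of all probes were called higher. The medians of their log2 ratios were -0.46, -0.48, -0.50, -0.47 and -1.095, where the medians of all probes lay between -0.00504 and 0.00715. The named probes were selected for a change, in either direction, in these samples. The list of estrogen-induced genes was written with earlier results of these data known. The counts are therefore no independent evidence of a change or of its direction. TFF1 and TFF3 made up 2 of the 4 genes of the list called on day 2.

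**Figure D5:**
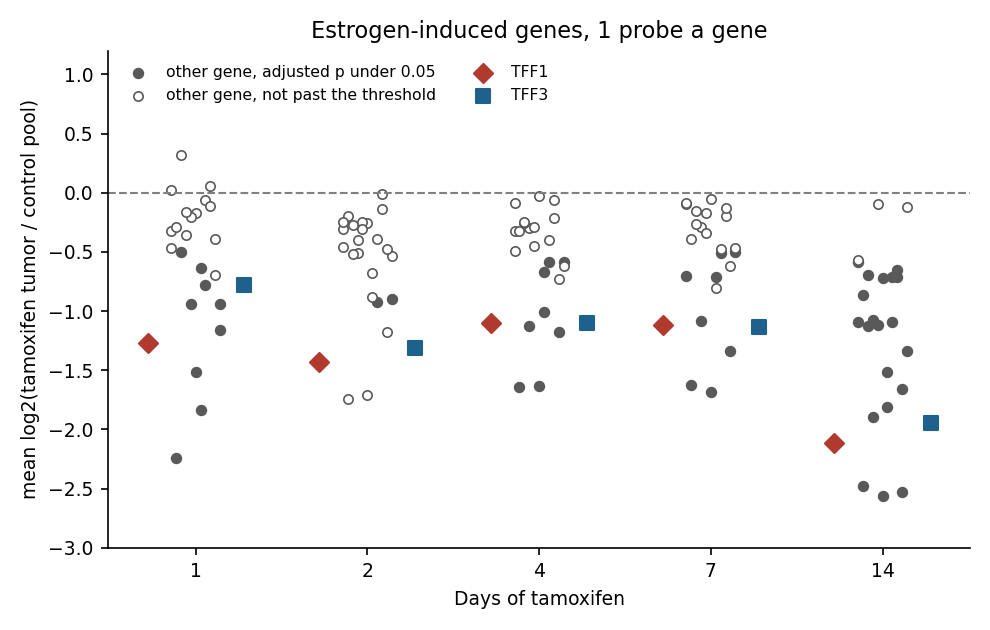
Mean log2 ratio of tumor over pool (vertical axis) by day of tamoxifen (horizontal axis, not to scale) for 25 estrogen-induced genes, 1 probe a gene. TFF1 and TFF3 are colored, and other genes are filled where the adjusted p from limma was under 0.05. All 22 genes called on day 14 lie below 0, and 3 other genes lie below TFF1 on that day.

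IGFBP4, a binding protein of insulin-like growth factors, had a lower ratio than TFF1 on each day, with -2.48 ± 1.04 on day 14 (adjusted p = 0.00418) and -2.24 ± 0.10 on day 1 (adjusted p = 0.00128), but its day 2 value of -1.75 did not pass (adjusted p = 0.0961). PDZK1, a scaffold protein, was at -1.83 ± 0.38 on day 1 (adjusted p = 0.000282), -0.80 ± 0.37 on day 7 (adjusted p = 0.14) and -1.51 ± 1.19 on day 14 (adjusted p = 0.00878). SERPINA1, the protease inhibitor alpha-1-antitrypsin, was at -1.66 ± 0.20 on day 14 (adjusted p = 0.00616) and -0.69 ± 0.24 on day 1 (adjusted p = 0.0931). Each of these 3 genes missed the threshold on at least 1 day. Besides the trefoil factors, OLFM1, a secreted glycoprotein, and MYBL1, a transcription factor related to MYB, passed on all 5 days, with means between -1.33 and -0.50 for OLFM1 and between -0.92 and -0.51 for MYBL1. These genes are named here after their values were seen, and the difference of any gene of the list from the trefoil factors was not tested.

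AREG, a ligand of the epidermal growth factor receptor, passed on days 7 (-0.70 ± 0.40, adjusted p = 0.0421) and 14 (-1.09 ± 0.14, adjusted p = 0.00522). SIAH2, a ubiquitin ligase, passed on day 14 alone (-0.86 ± 0.39, adjusted p = 0.027). MYB, a transcription factor, lay between -0.57 and -0.095 and passed on no day. On day 14, 3 of the other 23 genes of the list had a lower ratio than TFF1.

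Of 24 genes of mucosal secretion and trefoil partners, 7 had a named probe, and apart from the trefoil factors their courses differed. MUC1, a membrane mucin, was higher than the pool on day 14 (1.02 ± 0.051, adjusted p = 0.00628) and lower on day 1 (-0.69 ± 0.32, adjusted p = 0.0114). PIP (2.11 ± 0.44, adjusted p = 3.99e-05) and PSCA (3.39 ± 0.39, adjusted p = 7.65e-09), both made by secretory epithelia, rose on day 14, the day of the lowest trefoil factor ratios. CLU, a secreted chaperone, was higher on all 5 days, between 0.33 and 0.97. WFDC2, a secreted protein of glandular epithelia, passed the threshold on day 14 alone (-0.78 ± 0.070, adjusted p = 0.00509), and its means of -0.21, -0.33 and -0.25 on days 2, 4 and 7 did not pass.

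The genes whose ratio over the 16 tumors was most like that of TFF1, among 250 named genes, were ATP5D (r = 0.867), a subunit of the mitochondrial ATP synthase, MAPT (0.783), the microtubule protein tau, IGF1R (0.775), the receptor of insulin-like growth factor 1, and OLFM1 (0.753). Those most like TFF3 were WFDC2 (0.882), SCARB1 (0.856), a lipoprotein receptor, MPP2 (0.828), a scaffold protein of the membrane, and GFRA1 (0.827), a receptor of glial cell line-derived ligands. The median r of the 250 genes was 0.0946 for TFF1 and 0.113 for TFF3. No gene stands among the nearest 4 of both. Of the nearest genes, only ATP5D and OLFM1 passed the threshold on day 1, and all passed on day 14. Of all 9912 probes, 653 were called on day 1 and 623 on day 14, in both directions together. The nearest genes were picked for likeness to ratios that were lowest on day 14. Their probes were also selected for a change in these samples, so nothing is read from these counts. MAPT had a mean of -0.20 on day 1 and -1.12 on day 14, and SCARB1 one of 0.35 and -0.87. How far the day 14 tumors carry these r was not tested. The measure takes no account of size: ATP5D, at -1.60 on day 14 and -1.09 on day 1, was near TFF1 in size as well, while WFDC2, at -0.78 on day 14 and 0.053 on day 1, was not near TFF3.

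Of the markers of other cells the tumors could hold, few had a named probe: 3 of 12 for fibroblasts and matrix, 1 of 8 for red cells, and none of 7 each for endothelium and for macrophages and leukocytes. FN1, MGP and LGALS1 (fibronectin, matrix Gla protein and galectin-1) passed on no day up to day 7 and were all lower on day 14, with log2 ratios between -1.15 and -0.61. Of all probes, 2.96% were called lower on day 14. The named probes were selected for a change in these samples, so nothing is read from the number of markers called. HBG1, a fetal hemoglobin gene, lay between -1.18 and 0.097 and passed on no day. Of luminal epithelial markers 4 of 14 were measured, MUC1, CLDN4, CD24 and ERBB3, with a median log2 ratio of 0.85 on day 14 and 0.35 on day 1. On day 1 they differed in direction. CLDN4 was higher (0.88, adjusted p = 0.000657 in limma) and MUC1 lower (-0.69, adjusted p = 0.0114), and CD24 and ERBB3 did not pass. On day 14 all lay above 0, and 3 were called higher, where 3.33% of all probes were. CLDN4 did not pass on that day (0.49, adjusted p = 0.106 in limma). Keratins, EPCAM and ESR1 have no named probe, so the epithelial and receptor-positive character of the tumors rests on the labels. The matrix genes moved down with the trefoil factors on day 14 and the luminal markers did not, and their part in the trefoil factor values was not tested. The stroma came from the mouse, while the probes are named for human genes. Whether the matrix and hemoglobin spots read the human tumor cells or mouse RNA was not tested, so they do not measure a share of stroma.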

How the data were processed

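RNA of 16 tumors was compared with the control pool on 32 arrays of 2 colors. The deposited intensity values give, for each channel, the brightness of a spot and of its surroundings as the authors scanned them, neither corrected nor normalized. The deposited log2 values are ratios that the authors made with limma (no version given) by background correction, loess and quantile normalization, and serve as an alternative. Their column medians lay between -0.00826 and 0.0114, and they followed the scanner values with r = 0.217 to 0.994 (median 0.855). Gene names came from the list published with the study, and those of neighboring genes from RefSeq.

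Between 1 and 393 spots of an array carry a mark of 0, whose meaning is not stated, and were dropped. The rest was normalized in limma 3.58.1 (R 4.3.3, statmod 1.5.0) with normexp (offset 50), then loess for each array and quantile scaling over all arrays. The sign of dye-swap ratios was turned before both arrays of a tumor were averaged. The fit held a mean for each day, with mouse as random block, tested with eBayes, Benjamini-Hochberg adjusted over 9912 probes, and was tested on simulated data. Differences within tumors were averaged per mouse and tested by sign flips in Python 3 (numpy, scipy), and correlations by 100000 permutations. A call is an adjusted p under 0.05. The members and lists were chosen with earlier results of these data known. Named were all trefoil factor probes, 6 estrogen-induced genes whatever their values, the 4 nearest genes of each trefoil factor, and measured members of the short lists. Alternatives covered background, normalization, marks, dim probes, orientation, blocks, weights, the authors' table, the array not used, the sign, and leaving out each tumor.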

Additional observations from a re-analysis of the deposited data

How the results depend on the processing

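Without the sign setting, 478 of 510 trefoil factor values against the pool, over 34 settings, kept their direction and call, and 19 settings kept every call. Of these settings, 16 leave out 1 tumor each, which can hardly move the ratio of any other day. The setting without the tumor of the array not used repeats 1 of them. The counts are therefore no measure of how robust the calls are. Under the channel numbers of the labels every sign turns: days 1, 2, 4, 7 and 14 become 1.443, 1.701, 1.415, 1.259 and 2.287 for TFF1-B, 1.271, 1.43, 1.1, 1.123 and 2.111 for TFF1-A, and 0.7783, 1.31, 1.095, 1.14 and 1.943 for TFF3. Day 14 minus days 1 and 7 then become 0.8436 and 1.028, 0.8398 and 0.9875, and 1.165 and 0.8036 in the same probe order, the TFF1 probe difference 0.2278, TFF3 minus TFF1 -0.2404, and the dye differences 0.1326, 0.322 and 0.04626.

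Calls against the pool were lost as follows, and the cause was not tested. With only the arrays of the day, TFF1-B on day 2 was -1.701, TFF1-A on days 2 and 7 -1.43 and -1.121, and TFF3 on the same days -1.31 and -1.137. With the array not used taken as labelled, TFF1-B on days 4 and 7 was -1.029 and -1.264, TFF1-A on days 2, 4 and 7 -1.43, -0.8214 and -1.132, and TFF3 on days 4 and 7 -0.8206 and -1.15. With the authors' table, day 7 was -0.9828, -0.7813 and -0.9355 in probe order. Without its column for the forward array of day 7 replicate 4, a setting added after seeing the data, no call was lost. With 1 mean per mouse, TFF1-A on days 1, 4 and 7 was -1.271, -1.04 and -1.184 and TFF3 on day 1 -0.7783. With array weights TFF1-A on day 2 was -1.43, with an offset of 0 on day 7 -1.126, and with dye-swap arrays alone on day 4 -0.9977.

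Replicate numbers do not pair the tumors (mean r of deviations 0.0105 over 24 pairs with the same number, 5 over 0.1; 5 of 16 tumors correlate best with their own number). With the number as a block, the replicate block gave -1.358 for TFF1-A and -1.124 for TFF3 on day 2, which lost the call, and moved the calls over all probes on day 2 to 15 (77 without it) and on day 4 to 174 (106 without it). It changed no other call here.

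Calls were gained for TFF3 day 14 minus day 1 with plain subtraction (-1.168), no background correction (-1.15), no quantile step (-1.359), only the arrays of both days (-1.165), array weights (-1.176), the authors' table (-1.359) and that table without 1 column (-1.359). The last setting also called this difference for TFF1-B (-1.214) and TFF1-A (-1.238), and array weights called TFF1-B day 14 minus day 7 (-1.059). TFF3 minus TFF1 passed unadjusted without quantile (0.286) and with the authors' table (0.2648), and the TFF1-A dye difference without quantile (-0.2697) and with the array taken as labelled (-0.4791). With the authors' table the dye differences of TFF1-B and TFF3 turned sign (0.0605 and 0.06846), neither past the threshold in any setting.

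Leaving out each tumor in turn gave these ranges of the log2 ratio. For TFF1-B days 1, 2, 4, 7 and 14 ran from -1.461 to -1.413, -2.023 to -1.379, -1.447 to -1.375, -1.341 to -1.154 and -2.955 to -1.618, and day 14 minus days 1 and 7 from -1.512 to -0.1752 and -1.696 to -0.3588. For TFF1-A days 1, 2, 4, 7 and 14 ran from -1.364 to -1.198, -2.002 to -0.8574, -1.209 to -1.031, -1.233 to -0.9485 and -2.784 to -1.437, and day 14 minus days 1 and 7 from -1.513 to -0.1664 and -1.66 to -0.3128. For TFF3 days 1, 2, 4, 7 and 14 ran from -0.8112 to -0.7538, -1.584 to -1.036, -1.192 to -0.9754, -1.258 to -0.8719 and -1.967 to -1.919, and day 14 minus days 1 and 7 from -1.19 to -1.132 and -1.071 to -0.6856. The TFF1 probe difference ran from -0.255 to -0.1973, TFF3 minus TFF1 from 0.1802 to 0.2978, the dye differences from -0.1887 to -0.06422, -0.4085 to -0.2692 and -0.06738 to -0.01553, and r of TFF1 and TFF3 from 0.6742 to 0.7848.

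Over all probes and settings, the called number (653, 77, 106, 73 and 623 in the order of the days) ran from 26 (1 mean per mouse) to 1872 (forward arrays alone) on day 1, from 1 (only the arrays of the day) to 324 (without its second tumor) on day 2, and from 0 (array taken as labelled) to 929 (forward arrays alone) on day 4. It ran from 0 (authors' table) to 1044 (forward arrays alone) on day 7, and from 30 (without its second tumor) to 1440 (array weights) on day 14. The few tumors of days 2 and 14 limit the precision.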

Other observations

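The array not used on day 4 gave unturned trefoil factor ratios of -1.59 for TFF1-B, -1.26 for TFF1-A and -1.06 for TFF3, and turned as a dye swap they would be 1.59, 1.26 and 1.06. Its title gives replicate 4, while its source name is that of the tumor whose forward array is titled replicate 3.

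In the authors' value table, the forward array of day 7 replicate 4 holds 0.93 for TFF1-B, 0.93 for TFF1-A and 0.55 for TFF3, while the scanner intensities of that array gave -1.21, -1.04 and -1.16. Its dye swap holds -1.29, -1.14 and -1.02 in that table. This column followed its scanner file least of the 32 (r = 0.217).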
